A study of Mus musculus with 2 samples.

Results

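The 41 genes described here copy the genome during S phase. They were given as a list of DNA replication and S-phase genes, and all 41 were found by symbol among the 32285 features of each library. The cells came from the thymus of mice with the genotype E2F_M11, in which CRISPR-Cas9 had been used to take out a pair of E2F binding sites from the proximal promoter of Foxn1, the transcription factor that directs thymic epithelial development. The age, sex and strain of the mice are not given in the labels. Blood cells carrying CD45 were depleted with magnetic beads before droplet sequencing of 3′ transcript ends, in 2 libraries of this 1 genotype. Nothing in the labels ties each library to its own animal. The main tests took out the difference that all classes share between the libraries. Their p-values measure only the spread between these libraries that remains, pooled over the classes of a fit, which may be technical. Wild-type cells were not analysed here, so no value below measures the effect of the deletion.

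Replication starts when origins are loaded with the MCM helicase by the origin recognition complex, Cdc6 and Cdt1. Cdc45, the GINS complex and Mcm10 then switch the helicase on, DNA polymerases with primase and the Pcna clamp copy the strands, and flap removal and ligation finish the lagging strand. Many of these genes are transcribed by E2F factors when the retinoblastoma block is lifted at the end of G1. In the thymus, immature thymocytes divide fast, and part of the medullary epithelium that makes Aire is descended from recently dividing cells.

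Among the cell classes described below, most members were highest in thymocytes, and most were called higher in Aire-gated cells than in fibroblasts. The promoters of 7 members are shown: 3 helicase subunits, 2 chromatin genes that stood high in Aire-gated cells (Hells and Uhrf1), and 2 genes whose behaviour differed from each other (Pold1 and Rrm2). The windows come from RefSeq on the build GRCm38.p6 and run from 250 bases before to 50 bases after a transcript start, 5′ to 3′ on the gene's strand. The positions are Mcm3 at chr1:20820263-20820562 on the minus strand, Mcm5 at chr8:75109259-75109558 on the plus strand, Mcm6 at chr1:128359656-128359955 on the minus strand, Hells at chr19:38930740-38931039 on the plus strand, Uhrf1 at chr17:56304063-56304362 on the plus strand, Pold1 at chr7:44548766-44549065 on the minus strand and Rrm2 at chr12:24708004-24708303 on the plus strand. Capitals mark matches, on either strand, to the E2F-type letters TTTCCCGC, TTTCGCGC, TTTGGCGC or TTTGCCGC (reverse complements GCGGGAAA, GCGCGAAA, GCGCCAAA and GCGGCAAA) and to CCAAT (reverse ATTGG). Overlapping matches were each counted.
Mcm3: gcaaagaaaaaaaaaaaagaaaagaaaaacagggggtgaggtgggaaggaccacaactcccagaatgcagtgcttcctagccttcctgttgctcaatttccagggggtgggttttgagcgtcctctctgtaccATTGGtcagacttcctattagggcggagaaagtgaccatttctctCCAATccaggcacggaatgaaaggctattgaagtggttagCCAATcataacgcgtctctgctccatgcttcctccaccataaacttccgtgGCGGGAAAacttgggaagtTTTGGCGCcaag
Mcm5: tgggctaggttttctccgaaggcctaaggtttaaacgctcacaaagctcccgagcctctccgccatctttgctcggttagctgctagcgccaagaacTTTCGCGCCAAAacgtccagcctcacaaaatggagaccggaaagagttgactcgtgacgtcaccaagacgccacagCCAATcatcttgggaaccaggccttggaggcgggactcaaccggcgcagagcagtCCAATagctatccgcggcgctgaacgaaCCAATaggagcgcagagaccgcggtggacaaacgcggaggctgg
Mcm6: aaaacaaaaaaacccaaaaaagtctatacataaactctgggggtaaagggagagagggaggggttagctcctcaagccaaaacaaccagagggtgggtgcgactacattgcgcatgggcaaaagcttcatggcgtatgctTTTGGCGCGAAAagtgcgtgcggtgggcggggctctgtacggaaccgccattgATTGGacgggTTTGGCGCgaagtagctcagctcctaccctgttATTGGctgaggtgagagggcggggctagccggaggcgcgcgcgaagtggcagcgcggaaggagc
Hells: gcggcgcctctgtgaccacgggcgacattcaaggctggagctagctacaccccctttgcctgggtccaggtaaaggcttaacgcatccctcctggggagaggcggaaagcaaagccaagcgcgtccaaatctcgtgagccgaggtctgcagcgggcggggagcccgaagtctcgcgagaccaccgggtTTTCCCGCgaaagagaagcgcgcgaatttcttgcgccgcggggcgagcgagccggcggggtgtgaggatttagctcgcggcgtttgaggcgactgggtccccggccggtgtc
Uhrf1: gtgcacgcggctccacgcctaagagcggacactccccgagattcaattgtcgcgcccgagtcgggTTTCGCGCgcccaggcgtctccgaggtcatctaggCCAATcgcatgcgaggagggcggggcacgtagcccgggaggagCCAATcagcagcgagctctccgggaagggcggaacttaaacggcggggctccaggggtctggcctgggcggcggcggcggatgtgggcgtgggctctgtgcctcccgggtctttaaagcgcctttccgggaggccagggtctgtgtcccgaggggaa
Pold1: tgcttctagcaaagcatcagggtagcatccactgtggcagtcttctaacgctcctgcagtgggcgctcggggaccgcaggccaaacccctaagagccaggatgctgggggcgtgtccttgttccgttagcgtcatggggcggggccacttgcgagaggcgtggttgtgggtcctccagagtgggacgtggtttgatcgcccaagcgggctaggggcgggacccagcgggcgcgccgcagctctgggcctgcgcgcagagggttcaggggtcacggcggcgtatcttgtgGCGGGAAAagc
Rrm2: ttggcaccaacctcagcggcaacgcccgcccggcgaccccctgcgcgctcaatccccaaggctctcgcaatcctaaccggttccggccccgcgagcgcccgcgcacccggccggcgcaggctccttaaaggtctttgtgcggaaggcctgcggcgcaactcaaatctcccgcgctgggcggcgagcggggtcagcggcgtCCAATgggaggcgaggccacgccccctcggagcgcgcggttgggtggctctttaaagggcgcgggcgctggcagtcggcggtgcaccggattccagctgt

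Promoter windows were found for 35 members. A gene with several windows was counted by the window with the most matches, here and for all genes. Of the 35 members, 16 (45.7%) held at least 1 E2F-type match, against 704 of 27025 genes of the same table (2.61%). Dnmt1, Lig1, Mcm7 and Uhrf1 had E2F-type matches in only some of their windows. The other window of Uhrf1, not printed, lies at chr17:56303087-56303386 and held no E2F-type match. Among the 27 other replication genes with a window, 5 (18.5%) held one. Mcm6 had 3 such matches and Mcm3 and Mcm5 had 2 each, counted with overlaps. Rrm2 had none in this window, although it was among the members with the steepest contrasts described below. CCAAT was present in 22 of the 35 members (62.9%) and in 41.1% of all genes. Pold1 had 1 E2F-type match and no CCAAT.

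Cells were put into classes by their UMIs (unique transcript molecules) of marker genes that include no member, and the counts of all cells of a class were added up in each library. The classes were cortical epithelium (cTEC, with Psmb11 and Prss16), 3 medullary states named for Aire, Ccl21a and tuft-cell genes, fibroblasts, endothelium, mural cells (Rgs5 and Acta2) and thymocytes. The Aire gate summed Aire, Fezf2 and Cd80 and asked for at least 2 UMIs of these together and 4 per 10000. An Aire-gated cell therefore need not hold a UMI of Aire itself. The Aire gate held 247 and 122 cells in libraries 1 and 2, the Ccl21a gate 333 and 157, the cTEC gate 72 and 52, the tuft gate 54 and 42, the fibroblast gate 1802 and 1275, and the thymocyte gate 113 and 1436. Median depth was 8727 UMIs per cell in library 1 and 1874 in library 2, and 13 barcodes were shared between the kept cells of the libraries. Gates took 79.3% of kept cells in library 1 and 39.3% in library 2. Despite the depletion of CD45-positive cells, thymocytes were 3.15% and 17.5% of kept cells. Doublets were not called by a program. Cells with markers of more than 1 lineage above a set level were left out instead.

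The summed level of the 41 genes was highest in thymocytes and, among the stromal classes that were fitted, highest in Aire-gated cells. It is given in CPM, the UMIs of the genes per 1000000 UMIs of the class. It was 442 CPM in library 1 and 561 in library 2 for cTEC, 446 and 572 for tuft cells, 473 and 497 for fibroblasts, 560 and 572 for mural cells and 554 and 679 for endothelium. Fibroblasts lay below mural cells and endothelium in both libraries, while cTEC and tuft cells overlapped each of these 3 classes in range. Ccl21a-gated cells had 699 and 621 CPM, 660 ± 55.2 (SD, n = 2), and did not differ from endothelium beyond that spread. Aire-gated cells had 1228 and 1248 CPM, 1238 ± 14.1 (SD, n = 2), above every other fitted stromal class in both libraries. With unsupervised clusters in place of gates this order held in library 1 (1039 CPM) and turned in library 2, where tuft cells had 1158 CPM, Aire cells 1022 and fibroblasts 999, with thymocyte markers at 1907, 1067 and 1743 CPM in those clusters. Within a library their sum was 1.76 and 2.01 times that of Ccl21a-gated cells, 2.78 and 2.23 times that of cTEC and 2.60 and 2.51 times that of fibroblasts. Thymocytes stood at 2693 and 5299 CPM, and the libraries differed most there. With the gate thresholds doubled they had 1397 and 3880 CPM, beside 1078 and 835 in Aire-gated cells.

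**Figure D1:**
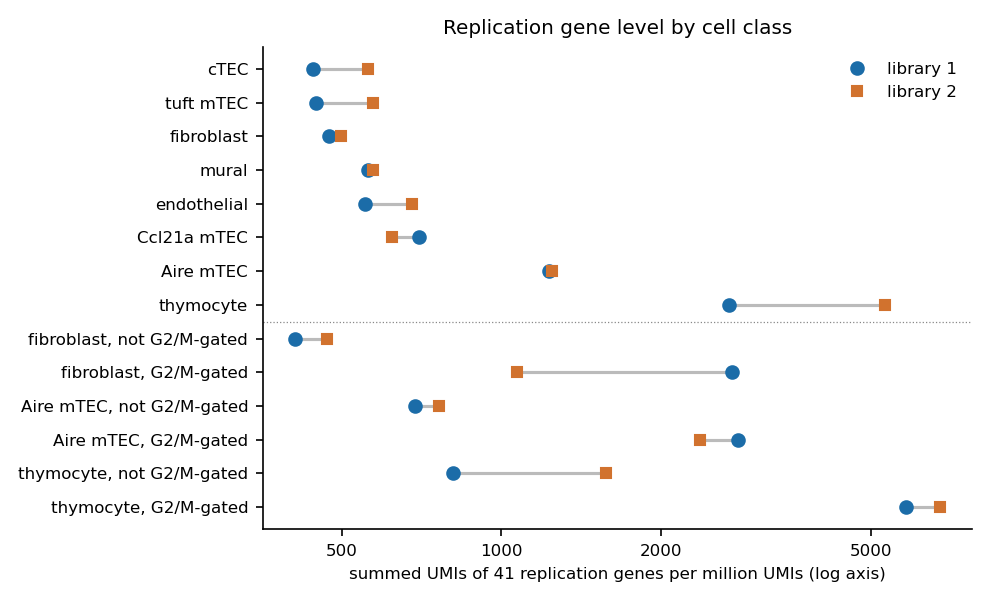
Summed CPM of the 41 replication genes in each class (log axis), with library 1 as circles, library 2 as squares and a line joining them. Above the dotted line are whole classes and below it the same cells split by a gate on 15 G2/M genes; Aire-gated cells sit at 1228 and 1248, and the G2/M-gated part of thymocytes is highest, at 5804 and 6732.

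Thymocyte transcripts were present in every stromal class. All 14 thymocyte markers were seen in Aire-gated cells and in fibroblasts. Their summed level in Aire-gated cells was 136 CPM in library 1 and 392 in library 2, which is 0.900% and 3.16% of the level in thymocytes. At that share, the thymocytes' own replication gene level comes to 24.2 and 168 CPM of the 1228 and 1248 measured. In fibroblasts the share was 1.03% and 3.74%, which comes to 27.8 and 198 of 473 and 497 CPM, and in cTEC 1.48% and 5.80%, which comes to 39.9 and 308 of 442 and 561. The part of these transcripts in the values of single genes was not tested.

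Single members differed widely in level. Dut, which clears dUTP from the nucleotide pool, had 128 and 132 CPM in Aire-gated cells and 390 and 708 in thymocytes. Slbp, which binds histone mRNA stem-loops, had 62.1 and 72.5 CPM in Aire-gated cells and 47.5 and 56.5 in fibroblasts, and Pcna had 74.7 and 70.6 against 43.1 and 48.1. At the other end, Orc1, the largest subunit of the origin recognition complex, stayed at 1.22 and 1.27 CPM in Aire-gated cells and had no UMI in Ccl21a-gated cells of either library, where 3 counts would be 0.904 and 2.72 CPM. Since counting was at the 3′ end, levels of different genes are compared here as molecules, without a length correction. Among the 8 classes that were fitted, thymocytes held the highest level of 35 members in library 1 and of 39 in library 2. Among those classes without thymocytes, the Aire gate held the highest level of 27 members in library 1 and of 20 in library 2. One of these is Pold1, which was higher still in a class too small to be fitted, described at the end.

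**Figure D2:**
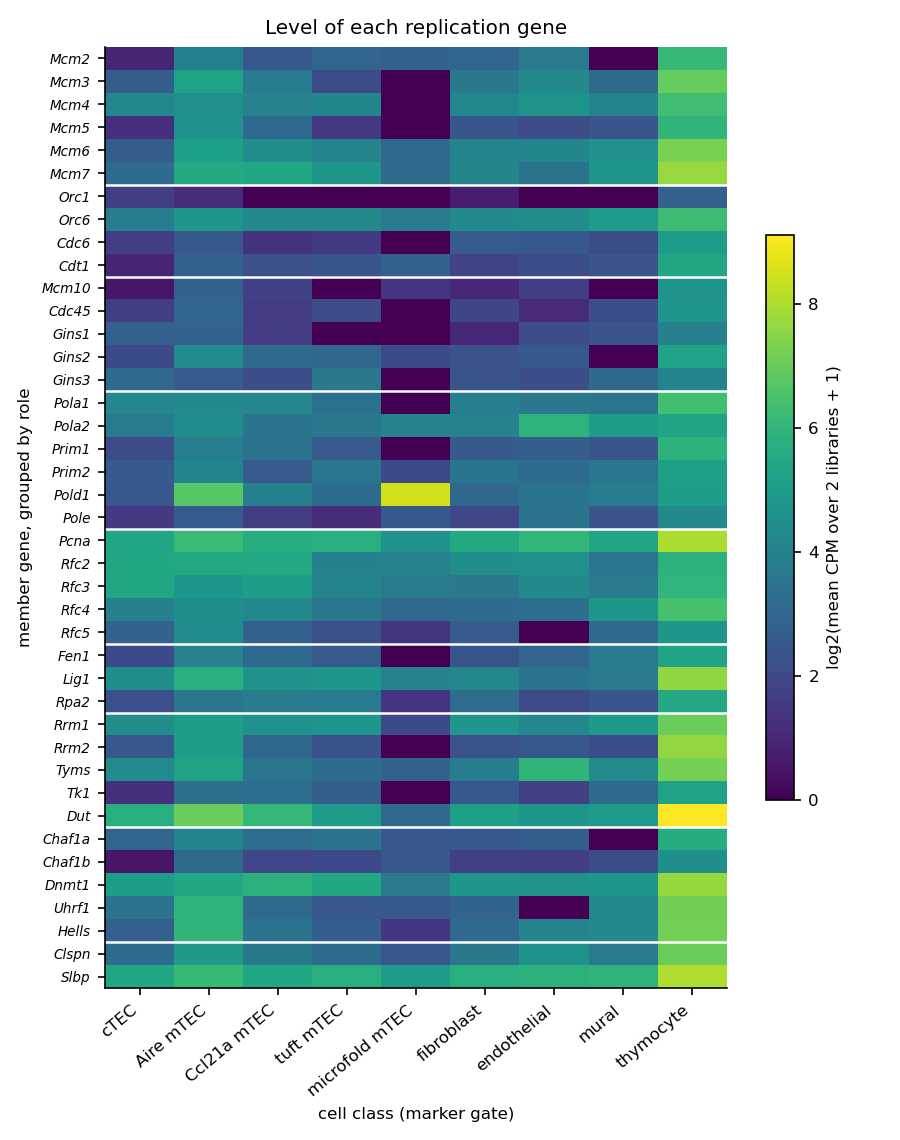
Level of each member (rows, grouped by role, white lines between roles) in 9 marker-gated classes (columns), as log2 of the mean CPM over 2 libraries plus 1. Thymocytes are bright in almost every row, Aire-gated cells are next, and Pold1 is the row in which the Aire and microfold columns are brightest.

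Aire-gated against Ccl21a-gated cells. As sums over the whole class, replication genes were higher in the Aire gate. Of 39 members that passed the filter on low counts (Gins1 and Orc1 did not), 18 (46.2%) were called higher at an adjusted p of 0.05 or less (edgeR's quasi-likelihood test, Benjamini-Hochberg over 12835 genes) and 0 lower, against 22.7% of all genes called higher and 13.3% called lower. Without that filter, 16 of 41 were called higher, beside 3516 of 25178 genes. The median log2 fold of the 39 was 1.18, beside 0.13 over all genes tested. With the gate thresholds doubled, 6 of 33 were called, and with unsupervised clusters in place of gates, 4 of 39. Here and in the comparisons below, the number of all genes called also changed with the setting. Such counts are therefore not read as changes particular to the list.

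The helicase subunits Mcm2, Mcm3, Mcm5 and Mcm6 were called, and Mcm4 and Mcm7 were not. Mcm5 had 22.9 and 26.1 CPM in Aire-gated cells and 7.84 and 7.25 in Ccl21a-gated cells, without overlap, a log2 fold of 1.79 ± 0.47 (SE, n = 2 libraries, adjusted p = 0.0050). Mcm3 had 33.5 and 40.7 CPM against 13.0 and 12.7, a log2 fold of 1.64 ± 0.39 (adjusted p = 0.0021). Mcm2 was lower in level, at 13.2 and 15.3 CPM against 4.82 and 4.53, with a log2 fold of 1.70 ± 0.45 (adjusted p = 0.0055). Mcm7 was nearly level between the states, at 49.3 and 44.5 against 43.1 and 41.7 CPM.

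Of the 5 chromatin genes, Uhrf1 and Hells were called. Uhrf1, which brings the maintenance methyltransferase to newly copied DNA, had 52.8 and 65.5 CPM in Aire-gated cells against 9.04 and 6.35 in Ccl21a-gated cells, a log2 fold of 2.94 ± 0.48 (adjusted p = 7.6e-05). Hells, a chromatin remodeller needed for DNA methylation, had 71.9 and 50.9 against 16.6 and 3.63 CPM, a log2 fold of 2.52 ± 0.43 (adjusted p = 0.00011). Dnmt1, the maintenance methyltransferase itself, was not called, at 42.6 and 43.2 CPM in the Aire gate and 62.7 and 50.8 in the Ccl21a gate. The histone chaperone subunits Chaf1a (18.3 and 14.6 against 12.1 and 5.44 CPM) and Chaf1b (5.48 and 10.2 against 3.92 and 1.81) were not called either. Whether Uhrf1 and Dnmt1 differ from each other in this contrast was not tested.

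Of the nucleotide supply genes, Rrm2, Tyms and Dut were called. Rrm2, the regulated subunit of ribonucleotide reductase, had 43.4 and 23.5 CPM against 10.2 and 4.53, a log2 fold of 2.22 ± 0.44 (adjusted p = 0.00050). Tyms, which makes thymidylate, had 26.0 and 47.0 against 13.0 and 9.07 CPM, a log2 fold of 1.66 ± 0.35 (adjusted p = 0.00078). Dut stood at 128 and 132 against 61.8 and 68.9 CPM. Rrm1, the large reductase subunit, and Tk1, thymidine kinase, were not called, and Tk1 had 5.68 and 12.7 CPM in the Aire gate beside 9.64 and 8.16 in the Ccl21a gate, which overlap.

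Of the polymerase and primase genes, Pold1, Pola2 and Prim2 were called. Pold1, the catalytic subunit of DNA polymerase delta, had the largest fold of any member: 95.6 and 117 CPM in Aire-gated cells and 13.9 and 15.4 in Ccl21a-gated cells, a log2 fold of 3.01 ± 0.27 (adjusted p = 5.6e-08). Prim2, the large primase subunit, had 17.5 and 15.3 against 5.73 and 4.53 CPM, a log2 fold of 1.81 ± 0.45 (adjusted p = 0.0032). Of the clamp and its loader, 1 gene of 5 was called, Rfc5 (18.9 and 21.0 against 8.14 and 4.53 CPM, a log2 fold of 1.66 ± 0.48, adjusted p = 0.0097), and Rfc3 had 29.8 and 22.9 CPM against 38.3 and 28.1. Pold1, Uhrf1 and Rrm2 stayed called under each of the 9 alternatives that could be fitted for them.

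The 35 other replication genes, a list of further subunits and regulators, gave 8 called higher (25.8%) and 1 lower of 31 tested, and the share called higher was near the 22.7% of all genes. The largest folds were those of Asf1b, a histone chaperone, at a log2 fold of 2.40 ± 0.68 (adjusted p = 0.0091), and Gmnn, the Cdt1 inhibitor geminin, at 2.25 ± 0.40 (adjusted p = 0.00015). Pold3, a subunit of polymerase delta, was called lower, at -0.92 ± 0.34 (adjusted p = 0.039).

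Of the same 31 genes, 11 (35.5%) were called higher and 1 lower in Aire-gated cells than in fibroblasts, near the 34.6% of all genes called higher. Their largest folds were those of Gmnn at a log2 fold of 3.34 ± 0.36 (adjusted p = 1e-07) and Rnaseh2b, a subunit of ribonuclease H2, at 3.01 ± 0.27 (adjusted p = 6.1e-09). Against Aire-gated cells, cTEC had 1 higher and 14 lower (45.2%, beside 21.0% of all genes), tuft cells 1 higher and 10 lower (32.3%, beside 19.5%) and thymocytes 22 higher (71.0%, beside 19.9%) and 2 lower. Rnaseh2a was the gene called higher in cTEC, at 1.54 ± 0.36 (adjusted p = 0.0024), and Pold3 the gene called higher in tuft cells, at 1.80 ± 0.36 (adjusted p = 0.00067). Ticrr, which helps fire origins, was highest in fold in thymocytes, at 2.90 ± 0.69 (adjusted p = 0.0017). Ccl21a-gated cells had 5 higher (16.1%, beside 19.1% of all genes) and 1 lower than fibroblasts, and endothelium had 1 higher (3.23%, beside 9.55%), Timeless, at 1.90 ± 0.52 (adjusted p = 0.011). With the G2/M gate described below, 11 of 35 (31.4%, beside 2.37% of all genes) rose in Aire-gated cells and 15 of 35 (42.9%, beside 5.56%) in thymocytes, and 0 fell.

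Against fibroblasts, which share the Aire-gated sums with the comparison above, the excess covered more of the list. Of 39 members 30 (76.9%) were called higher and 0 lower, while 34.6% of all genes were called higher and 21.1% lower. The median log2 fold was 1.48, beside 0.24 over all genes, and that overall median became 0.12 with RLE size factors. Under RLE 27 members were called higher, beside 4112 of 12835 genes. With clusters in place of gates 3 were called, and with doubled gate thresholds 15 of 33.

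All 5 chromatin genes and all 5 genes of the clamp and its loader were called in this comparison. Uhrf1 had 7.16 and 5.77 CPM in fibroblasts, for a log2 fold of 3.33 ± 0.41 (adjusted p = 8.2e-07), and Hells had 7.51 and 7.83, for 3.25 ± 0.39 (adjusted p = 4.9e-07). Rrm2 had 3.09 and 5.08 CPM in fibroblasts, for 3.43 ± 0.40 (adjusted p = 3.3e-07). Pold1 again had the largest fold, with 6.40 and 8.11 CPM in fibroblasts and a log2 fold of 4.10 ± 0.25 (adjusted p = 4.8e-11). Gins2, part of the GINS complex, had 21.1 and 19.7 CPM in Aire-gated cells and 3.84 and 4.26 in fibroblasts, and Mcm10 had 5.48 and 6.99 against 1.69 and 0.412. The 9 members not called were Mcm4, Cdc6, Gins3, Pola1, Pola2, Pole, Rpa2, Rrm1 and Tk1. Rrm1 had 30.2 and 35.0 CPM beside 26.0 and 25.3 in fibroblasts.

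**Figure D3:**
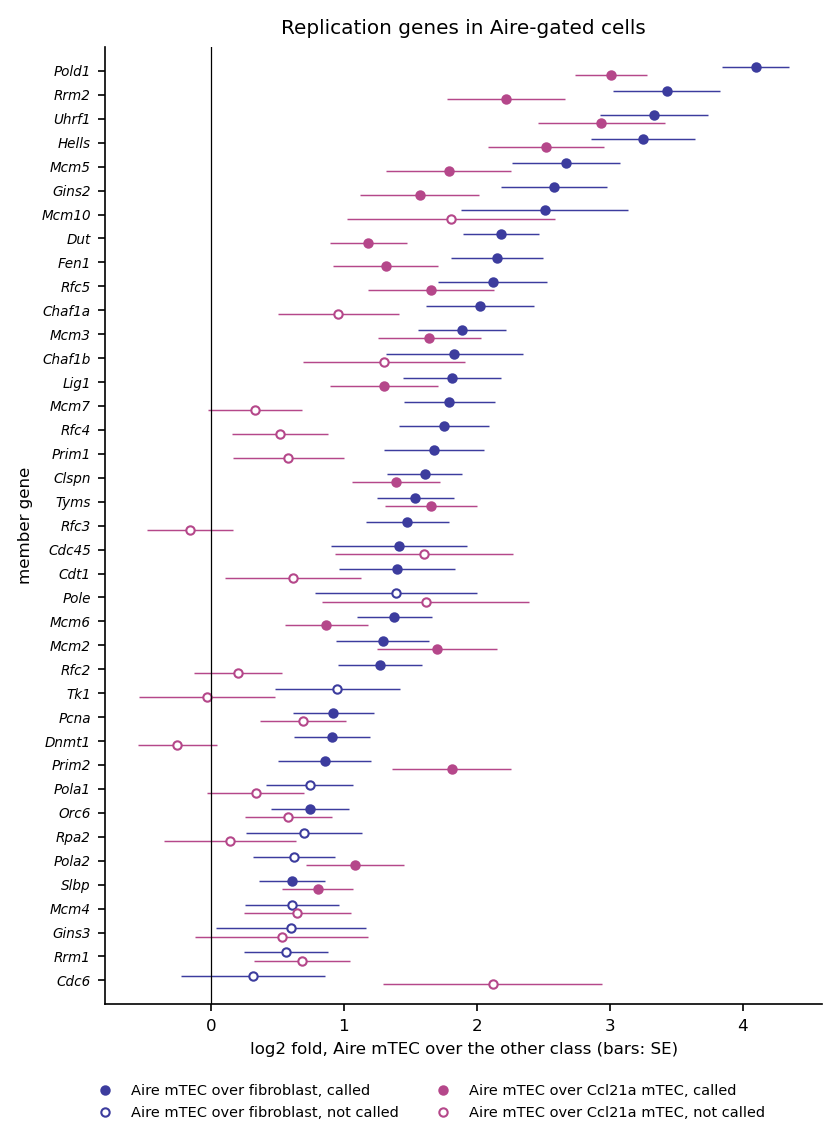
Log2 fold of each tested member in Aire-gated cells over fibroblasts and over Ccl21a-gated cells, with standard errors as bars and filled points for members called at an adjusted p of 0.05 or less. Both comparisons use the same Aire-gated sums; Pold1 is at the top with 4.10 and 3.01, and Cdc6 is at the bottom of the fibroblast order with 0.32.

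Cortical epithelium had less of most members than Aire-gated cells. Of 39 members 22 (56.4%) were called lower and 0 higher, against 21.0% of all genes called lower and 12.1% higher. The median log2 fold was -1.89, beside -0.23 over all genes. Of the 6 helicase subunits, 5 were called lower. Mcm3 had 6.37 and 4.52 CPM in cTEC, a log2 fold of -2.73 ± 0.60 (adjusted p = 0.0014) against the Aire gate. Mcm5 had 3 UMIs in all cTEC of both libraries and 154 in Aire-gated cells, a ratio of rates of 10.4 with a 95% counting interval of 3.50 to 51.1. Mcm2 had 2 UMIs against 89, a ratio of 9.04 (2.43 to 75.8). Uhrf1 had 1.82 and 18.1 CPM in cTEC and a log2 fold of -3.74 ± 0.73 (adjusted p = 0.00055). Pold1 had 4.55 and 4.52 CPM and a log2 fold of -4.65 ± 0.42 (adjusted p = 8.3e-08). Rfc3, a clamp loader subunit, was the exception in sign, at 39.1 and 45.2 CPM in cTEC beside 29.8 and 22.9 in the Aire gate, and was not called. Library 2 held 221226 UMIs in cTEC, so that 1 UMI there is 4.52 CPM. Clusters in place of gates left 3 called, and doubled thresholds 10 of 33.

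Tuft-gated cells were also below Aire-gated cells. Of 39 members 16 were called lower and 0 higher, against 19.5% and 11.9% of all genes. Mcm3 had 3 UMIs in tuft cells against 229, a ratio of 14.0 (4.73 to 68.4), and Mcm5 had 2 against 154, a ratio of 14.1 (3.85 to 118). Mcm10 had 0 UMIs in tuft cells of both libraries against 38 in Aire-gated cells, at least 2.32-fold lower when 3 counts over the group are taken as the floor. Pold1 had 8.70 and 7.73 CPM in tuft cells, a log2 fold of -3.88 ± 0.37 (adjusted p = 1.2e-07). Dnmt1 was nearly level, at 44.7 and 41.2 CPM in tuft cells and 42.6 and 43.2 in the Aire gate. Clusters in place of gates left 1 called, and doubled thresholds 8 of 33.

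Ccl21a-gated cells and fibroblasts differed in few members. Of 39 members 8 (20.5%) were called higher in Ccl21a-gated cells and 0 lower, against 19.1% and 16.6% of all genes, so the share called higher was near that of all genes. They were Rfc2, Rfc3, Rfc4, Mcm7, Dnmt1, Dut, Pold1 and Prim1. Rfc3 had 38.3 and 28.1 CPM beside 12.2 and 10.3 in fibroblasts, a log2 fold of 1.64 ± 0.32 (adjusted p = 0.00028), and Mcm7 had 43.1 and 41.7 beside 14.6 and 18.4, a log2 fold of 1.46 ± 0.35 (adjusted p = 0.0025). With clusters in place of gates 0 were called and the median log2 fold turned from 0.51 to -0.21.

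Few members were called between endothelium and fibroblasts. The endothelial sums were small, at 447736 and 216338 UMIs, so the low number of calls does not show that these classes are alike. Of 39 members 2 (5.13%) were called higher in endothelium and 0 lower, against 9.55% and 10.5% of all genes. Pola2, the accessory subunit of polymerase alpha, had 69.2 and 50.8 CPM in endothelium and 16.8 and 13.7 in fibroblasts, a log2 fold of 2.02 ± 0.38 (adjusted p = 0.00045), and its endothelial level was above that of Aire-gated cells (22.3 and 17.2) and thymocytes (36.2 and 42.0). Tyms had 53.6 and 69.3 CPM against 13.4 and 13.9, a log2 fold of 2.13 ± 0.39 (adjusted p = 0.00035). Of the other nucleotide genes, Rrm2 had 0 and 9.24 CPM in endothelium, and Tk1 had 0 and 4.62. Uhrf1 and Rfc5 had no UMI in the 84 and 53 endothelial cells, where 3 counts would be 6.70 and 13.9 CPM.

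As sums over the whole class, thymocytes exceeded Aire-gated cells in almost every member. Of 39 members 35 (89.7%) were called higher and 1 lower, against 19.9% of all genes called higher and 33.3% lower. The median log2 fold was 1.80, beside -0.22 over all genes, and it was 0.79 from library 1 alone and 2.20 from library 2 alone. The largest folds were those of a pair of origin loading factors. Cdt1 had 38.8 and 48.1 CPM in thymocytes beside 5.07 and 6.99 in Aire-gated cells, a log2 fold of 2.77 ± 0.42 (adjusted p = 1.5e-05), and Cdc6 had a log2 fold of 2.48 ± 0.58 (adjusted p = 0.0011). Rrm2 had 145 and 244 CPM, for 2.34 ± 0.37 (adjusted p = 1.9e-05), and Mcm2 had 46.5 and 89.3, for 2.18 ± 0.35 (adjusted p = 3.6e-05). The 3 members not called were Gins2, Rfc2 and Rfc5. Pold1 was the 1 member called lower, at 25.8 and 41.7 CPM in thymocytes and a log2 fold of -1.67 ± 0.26 (adjusted p = 1.5e-05).

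A gate on 15 G2/M genes, none of them a member, then split the classes. It marked 47 (19.0%) and 26 (21.3%) of Aire-gated cells and 16 (14.2%) and 831 (57.9%) of thymocytes. In Aire-gated cells the marked cells had 2801 and 2370 CPM of the 41 genes and the rest had 688 and 763, so the sum was 4.07 and 3.11 times higher in marked cells. They supplied 58.3% and 57.3% of the member UMIs from 25.5% and 30.2% of all UMIs. The unmarked Aire-gated cells still had 1.69 and 1.63 times the level of unmarked fibroblasts (408 and 468). Without Pold1 the unmarked Aire-gated cells had 597 and 642 CPM and unmarked fibroblasts 402 and 460. Ccl21a-gated cells, which were not split, had 699 and 621 CPM as a whole class, or 685 and 606 without Pold1. The gate marked 2.70% and 6.37% of them. Unmarked Aire-gated cells overlapped that class in range with and without Pold1, so no excess over it is read outside marked cells. The median depth of marked Aire-gated cells was 26884 and 15240.5 UMIs, beside 17784.5 and 5787.5 in the rest, and the part of depth in the gate was not tested. In fibroblasts the marked cells were 1.94% and 9.10%, with 2725 and 1072 CPM. In library 2 those marked fibroblasts had a thymocyte marker level of 931 CPM beside 439 in the rest. Marked thymocytes supplied 81.3% and 91.7% of that class's member UMIs from 37.7% and 72.2% of its UMIs. In library 1 these were 16 cells with a median of 8258.5 UMIs, beside 2268 in the rest. The unmarked thymocytes had 809 and 1579 CPM.

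At equal depth, cells with several member UMIs were more frequent in the Aire gate than in the Ccl21a gate or among fibroblasts in library 1, and than among fibroblasts in library 2. With every cell thinned to 1000 UMIs, at least 3 member UMIs were seen in 11.7% (95% exact binomial interval 8.01 to 16.4) and 10.7% (5.80 to 17.5) of Aire-gated cells, in 2.10% (0.849 to 4.28) and 3.82% (1.42 to 8.13) of Ccl21a-gated cells and in 2.61% (1.92 to 3.45) and 2.82% (1.99 to 3.89) of fibroblasts. The intervals of Aire-gated and Ccl21a-gated cells overlap in library 2. Those of mural cells in library 1 (7.41%, 0.910 to 24.3) and of tuft cells in library 2 (7.14%, upper bound 19.5) also overlap that of Aire-gated cells, as do those of other small classes. The share of cells with any member UMI did not separate them in library 1, at 47.0% of Aire-gated, 46.2% of Ccl21a-gated and 50% of endothelial cells. For at least 3 member UMIs, thymocytes gave 8.85% (4.33 to 15.7) in library 1 and 51.9% (49.3 to 54.5) in library 2. The share in library 1 is below that of Aire-gated cells while the CPM is above it, so no order between them is read from the shares. Without thinning, the shares in Aire-gated cells were 86.2% and 66.4%, in Ccl21a-gated cells 75.7% and 59.9%, in fibroblasts 61.4% and 45.5% and in thymocytes 37.2% and 70.0%, at median depths of 19065 and 7742, 8451 and 5769, 8880 and 5110, and 2581 and 2129.5 UMIs. Among marked Aire-gated cells the thinned share was 38.3% and 34.6%, against 5.5% and 4.17% of the rest. The intervals cover counting error only.

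Within Aire-gated cells, 24 of 40 tested members (60%) were called higher with the G2/M gate and 0 lower, against 2.37% of 12659 genes called higher and 4.25% lower. Of the nucleotide supply genes, Tyms had 81.8 and 122 CPM in marked cells and 6.82 and 14.6 in the rest, a log2 fold of 3.19 ± 0.46 (adjusted p = 0.0015). Rrm2 had 137 and 59.0 against 11.5 and 8.19, a log2 fold of 3.11 ± 0.52 (adjusted p = 0.0033). Dut had 340 and 301 against 55.9 and 59.2, a log2 fold of 2.29 ± 0.30 (adjusted p = 0.00083). Rrm1, nearly level between the Aire gate and fibroblasts as a whole, had 89.0 and 86.4 CPM in marked cells and 10.1 and 12.7 in the rest, a log2 fold of 2.80 ± 0.60 (adjusted p = 0.014). All helicase subunits except Mcm4 were called, for example Mcm7 at 132 and 99.0 against 21.0 and 20.9 CPM. Mcm10 had the largest fold, 3.48 ± 0.98 (adjusted p = 0.048), from 19.9 and 14.7 against 0.545 and 3.64 CPM. Under a stricter cell filter (2000 UMIs or more, mitochondrial share of 5% or less) 6 members were called.

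In thymocytes the same gate gave 35 of 40 members higher (87.5%) and 0 lower, against 5.56% and 2.33% of all genes. Over all genes there were 704 higher and 295 lower calls, which became 570 and 443 with RLE size factors. Rrm2 had 377 and 329 CPM in marked thymocytes and 4.15 and 25.5 in the rest, a log2 fold of 4.19 ± 0.53 (adjusted p = 0.00063). Tyms had 226 and 256 against 24.9 and 22.6, a log2 fold of 3.61 ± 0.47 (adjusted p = 0.00070). Cdc45, which joins MCM and GINS into the active helicase, had 34.3 and 53.9 against 0 and 5.78 CPM, a log2 fold of 3.57 ± 0.64 (adjusted p = 0.0043). The 5 not called were Mcm2, Gins3, Pola2, Prim2 and Chaf1b. With clusters in place of gates 14 of 41 were called.

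Members with and without an E2F-type match in any of their promoter windows are given by their medians for this gate. In Aire-gated cells the median log2 fold was 1.91 over 15 members with a match and 2.11 over 19 without, and in thymocytes it was 2.17 and 2.55. This is a description of these windows only.

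The 2 splits were compared directly by an interaction term. With edgeR, 0 of 40 members were called in either direction, with 0% of 12659 genes called. Unadjusted p was under 0.05 for 5 members (Pold1, Pcna, Clspn, Slbp and Dnmt1). DESeq2's Wald test called 1 member, Pold1, and of all 12659 genes it called 113 higher and 22 lower. The median of the differences was 0.44 on the log2 scale, thymocyte over Aire-gated, beside 0.24 over all genes.

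**Figure D4:**
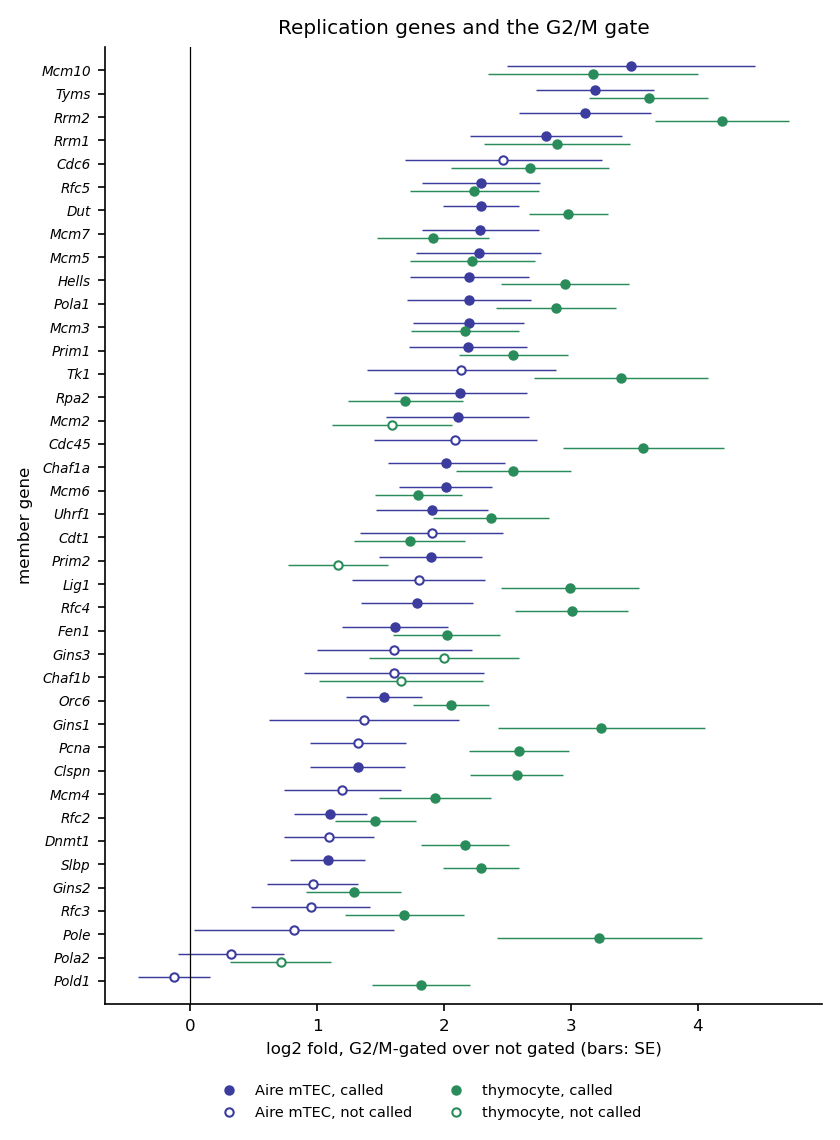
Log2 fold of each tested member in G2/M-gated cells over the other cells of the same class, in Aire-gated cells and in thymocytes, with standard errors as bars and filled points for called members. All members lie at or above 0.32 in Aire-gated cells except Pold1, at -0.13, which is at 1.82 in thymocytes.

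Pold1 was the member with the lowest fold for the G2/M gate in Aire-gated cells, and was singled out after its values were seen. The gene (ENSMUSG00000038644) lies at chr7:44532746-44548849 on the minus strand in GENCODE M21 on GRCm38. Marked Aire-gated cells had 110 and 107 CPM and the rest had 90.8 and 121, which overlap, a log2 fold of -0.13 ± 0.28 (adjusted p = 0.87). In thymocytes it was 54.8 and 50.4 CPM in marked cells and 8.30 and 19.1 in the rest, a log2 fold of 1.82 ± 0.39 (adjusted p = 0.012). The difference between those splits was 1.94 ± 0.48 (log2 scale, unadjusted p = 0.0012, adjusted p = 0.17 with edgeR), and 1.83 ± 0.57 with DESeq2 (adjusted p = 0.040). DESeq2 was the only setting that called it. In the other alternatives, all with edgeR, adjusted p ran from 0.17 to 0.63, the last with clusters in place of gates. Without Pold1 the summed level of Aire-gated cells was 1132 and 1131 CPM.

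Thinned to 2000 UMIs per cell, a Pold1 UMI was found in 15.4% (95% exact interval 11.1 to 20.6) and 21.8% (14.5 to 30.7) of Aire-gated cells, against 1.51% (0.492 to 3.49) and 1.56% (0.190 to 5.53) of Ccl21a-gated cells and 1.19% (0.740 to 1.82) and 1.65% (0.944 to 2.66) of fibroblasts. Without thinning the shares were 57.9% and 41% in Aire-gated cells, 11.7% and 8.92% in Ccl21a-gated cells and 5.6% and 4.39% in fibroblasts. Within the Aire gate the thinned share was 17.4% and 20.0% of marked cells and 14.9% and 22.4% of the rest.

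Microfold-gated cells, a small medullary class with Gp2 and Ccl20 that was too small in library 2 to be fitted, had still more Pold1. It came to 382 CPM in 23 cells of library 1 and 328 CPM in 10 cells of library 2, from 121 and 36 UMIs. Of the 41 members, 25 and 18 were seen in these cells, with summed levels of 596 and 564 CPM including Pold1. The same cells had no UMI of Mcm3, Mcm4, Mcm5 or Rrm2 in either library, where 3 counts would be 9.46 and 27.3 CPM. Mcm5 and Rrm2 lay under those values in fibroblasts too, in both libraries. Fibroblasts had 11.7 and 11.1 CPM of Mcm3 and 17.3 and 19.0 of Mcm4, above that value in library 1 only. These zeros are therefore not read as placing microfold-gated cells below fibroblasts. Microfold markers in Aire-gated cells stood at 1.26% and 0.491% of their level in the microfold class, and at that share the microfold level of Pold1 comes to 4.81 and 1.61 CPM of the 95.6 and 117 measured.

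The next gene on the same strand is Spib, an ETS-family transcription factor, which begins 674 bases past the 3′ end of Pold1 (chr7:44525993-44532071, minus strand). It was looked at after the Pold1 values were seen. Spib had 852 and 892 CPM in microfold-gated cells, 294 and 430 in tuft cells, 125 and 141 in Aire-gated cells, 47.0 and 42.6 in Ccl21a-gated cells and 18.6 and 22.9 in fibroblasts. Of these classes, the microfold class had the highest level of both genes, and both were high in the Aire gate, whereas tuft cells had high Spib with 8.70 and 7.73 CPM of Pold1. In thymocytes Spib was at 2.58 and 4.02 CPM. Whether reads of one gene were counted for the other was not tested.

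**Figure D5:**
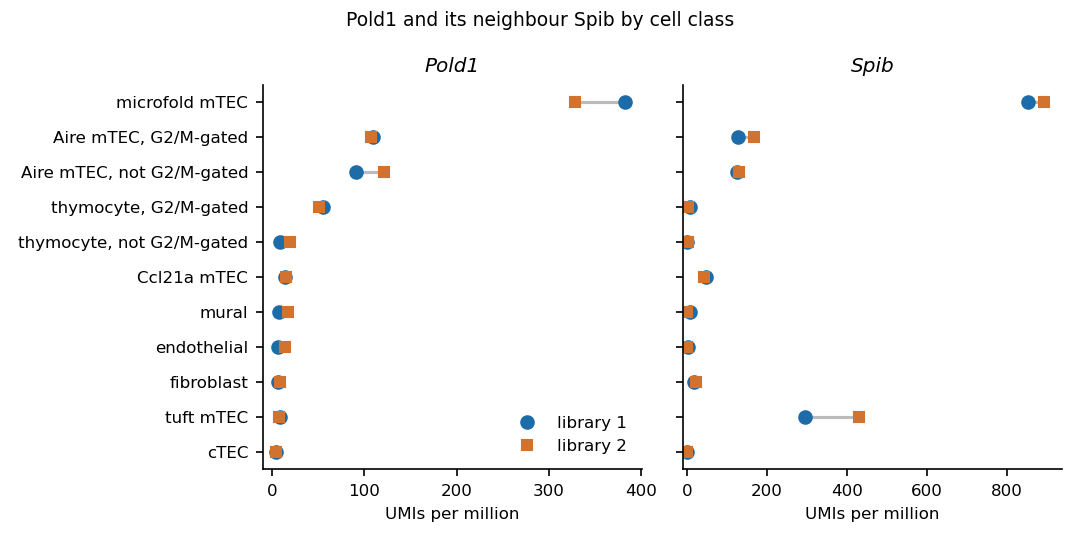
CPM of Pold1 and of its neighbour Spib in each class, with library 1 as circles and library 2 as squares on linear axes. Pold1 is at 382 and 328 in microfold-gated cells and near 100 in both parts of the Aire gate, while tuft cells have 294 and 430 of Spib and under 10 of Pold1.

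Counting at overlapping genes may limit some members. In GENCODE M21, 11 members overlap a protein-coding gene on the other strand, among them Mcm7 with Cops6 and Ap4m1, Tk1 with Afmid, Rfc4 with Eif4a2 and Cdc45 with Ufd1, and Cdt1 overlaps the predicted gene Gm20388 on its own strand. Whether the counting used strand is not given in the sources used here.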

How the data were processed

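The deposited files hold raw UMI counts (gene by barcode, per the file headers) for 2 droplet libraries of 1 genotype. Cell Ranger 7, Seurat 4 and mm10 are named per the submitters' processing notes, and Cell Ranger 6.0.0 per the file headers. Filters of 500 genes, 1000 UMIs and a mitochondrial share of 10% kept 3588 of 5110 and 8186 of 19163 barcodes. Members and lists were chosen with earlier results of these data known. Gates used marker UMIs per 10000. Counts were summed per library and class (15 cells or more in each library) and tested with edgeR 4.0.16 (quasi-likelihood, TMM, library as block, Benjamini-Hochberg over all genes), in 1 fit of 8 classes and 1 of split classes. All class sums of a library come from 1 cell suspension, which is where the pairing comes from; the correlation of library differences between classes had a median of 0.039 over 28 pairs. Folds and adjusted p are printed for called members, at most the 10 largest per direction. On simulated counts, 82% of 4-fold and 40% of 2-fold changes were recovered for Aire against Ccl21a, among 12835 genes, and 65% and 19% for the G2/M split of Aire-gated cells, among 12659. Alternatives included DESeq2 1.42.0, RLE, no filter, other gates and scanpy 1.11.5 clusters.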

Additional observations from a re-analysis of the deposited data

Results flagged for a closer look

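Cells that fell in no class also carried replication transcripts. In library 1 these were 653 cells (18.2%) with a summed member level of 735 CPM, and in library 2 they were 4912 cells (60%) with 2254 CPM. They enter no comparison above, and both levels are above those of fibroblasts and of cTEC in the same library. The G2/M gate marked 8.27% and 41.6% of them. Their thymocyte marker level was 869 and 3524 CPM, and the part of thymocyte RNA in the member level was not tested. Cells with fibroblast and thymocyte but no epithelial markers above the gate levels numbered 1400 in library 2, with 2113 CPM of the members. Those with epithelial and thymocyte but no fibroblast markers numbered 939, with 1955 CPM. Library 1 held 5 and 35 such cells.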

How the results depend on the processing

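Of 81 called folds that the text could name, none changed sign under the alternatives that could be fitted for each. Clusters in place of gates left 36 of the 81 called. Stricter gates left 40 of 51, the stricter cell filter 53 of 61 and thinning 11 of 21, where fewer could be tested. Gates with doubled thresholds left fewer members called: 6 for Aire over Ccl21a, 10 for cTEC under Aire, 15 for Aire over fibroblasts, 4 for Ccl21a over fibroblasts and 8 for tuft under Aire, with 33 members tested. Unsupervised clusters left 4, 3, 3, 0 and 1 in the same order, 1 for endothelium over fibroblasts and 14 for the G2/M gate in thymocytes. Those clusters carried more thymocyte markers: 169 and 1743 CPM in fibroblasts and 179 and 1067 in Aire cells. In library 2 alone their median for Aire over fibroblasts was -0.22 and that for tuft over Aire 0.23, against the sign of the pooled value. Thinning to 1000 UMIs per cell left 5 members testable between classes, of which 0, 0, 1, 0 and 0 were called in that order, 3 higher and 0 lower in thymocytes. It left 18 testable for the G2/M gate, of which 2 were called in Aire-gated cells and 14 in thymocytes. Without a filter on low counts, 3 were called higher and 2 lower in Ccl21a-gated cells and 2 lower in endothelium than in fibroblasts. The stricter cell filter left 6 for the G2/M gate in Aire-gated cells. In the comparison of the splits DESeq2 called 1 member, beside 113 genes higher and 22 lower. A limit of 10 thymocyte marker UMIs per 10000, chosen after seeing the data as was one of 30, gave 1 lower in Ccl21a-gated cells than in fibroblasts. The number of all genes called also changed with the setting. These counts of members are therefore not read as changes particular to the list.

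The median log2 fold turned for Ccl21a over fibroblasts, from 0.51 to -0.21 with clusters and -0.22 with thinning, and for endothelium over fibroblasts, from -0.07 to 0.75 with thinning, and it ran from -0.18 to 0.30 over single libraries (0.30 without library 1). Those for endothelium are medians of fitted values that include genes with no UMI in endothelium. The causes were not tested.

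Summed levels moved in cTEC (766 CPM with clusters), Aire-gated cells (1266 with the stricter cell filter, 956 with stricter gates, 1030 with clusters), tuft cells (808 with clusters), fibroblasts (459 with the stricter cell filter, 745 with clusters, 464 and 523 with limits of 10 and 30) and mural cells (402 with stricter gates, 548 and 577 with those limits). These are means of the libraries. In library 2 with clusters, tuft cells (1158) stood above Aire cells (1022) and fibroblasts were at 999. Thymocytes had a mean of 2639 with stricter gates, in place of 3996. Shares of cells with at least 3 member UMIs, at 2000 UMIs and unthinned, were 22.9% and 86.2% in library 1 and 29.1% and 66.4% in library 2 for Aire-gated cells. They were 13.6% and 75.7%, then 12.5% and 59.9%, for Ccl21a-gated cells, 7.10% and 61.4%, then 8.44% and 45.5%, for fibroblasts, and 31.3% and 37.2%, then 62.2% and 70.0%, for thymocytes.

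Without the replicate block, 17 members were called for Aire over Ccl21a and 29 for Aire over fibroblasts, and no count of members moved by over 1.5 times. Of the other replication genes, 3 in place of 5 were then called higher in Ccl21a-gated cells than in fibroblasts, and 1 in place of 2 lower in thymocytes than in Aire-gated cells. In the same order as the members above, clusters called 6, 4, 3, 0 and 1 of them and stricter gates 4, 7, 6, 2 and 3, and the stricter cell filter called 0 for the G2/M gate in Aire-gated cells. RLE size factors moved the median of all genes from 0.24 to 0.12 for Aire over fibroblasts and from -0.22 to -0.33 for thymocytes over Aire. Leaving out cells with any thymocyte marker UMI was not run except within thymocytes, nor were stricter gates for the splits or the stricter cell filter for tuft cells and the thymocyte split, since too few cells were left.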
